A study of Mus musculus with 21 samples.

Results

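Cortex of 5 mice carrying a TDP-43 transgene without its nuclear localisation signal (dNLS bigenic) was set against cortex of 4 mice carrying the wild-type TDP-43 transgene (WT bigenic), with both transgenes switched on by a second transgene, the tetracycline transactivator tTA. The 9 arrays were chosen by their sample titles, out of 21 in the series. All mice had a mixed C57BL/6J x C3HeJ background and were taken 2 weeks after doxycycline, which keeps tTA silent, was withdrawn from the diet. By the labels, the dNLS bigenic mice were 4 males and 1 female of line NLS4, and the WT bigenic mice 1 male and 3 females of line WT12. Another 8 nontransgenic mice (from NLS4 4 males and 2 females, from WT12 2 females) and 4 mice with the dNLS transgene but no tTA (dNLS monogenic, 3 males and 1 female of line NLS4) give the level of each gene without a running transgene. No group had tTA alone, and each transgene is represented by 1 line, so transgene and line cannot be told apart. The labels do not name the promoter that drives tTA or the ages of the mice. In the published description of these lines the promoter is that of Camk2a, active in excitatory neurons of the forebrain, so the mixed cortical RNA holds many cells without the transgene.

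TDP-43, the product of Tardbp, is an RNA-binding protein that works mainly in the nucleus, where it regulates splicing and transcript stability and limits its own messenger RNA. In amyotrophic lateral sclerosis (ALS) and frontotemporal dementia (FTD) it leaves the nucleus and collects in the cytoplasm of neurons. A transgene without the nuclear localisation signal places the protein in the cytoplasm, whereas a wild-type transgene adds protein that can enter the nucleus.

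Each array read 22690 probe sets, of which 12393 genes were kept with 1 probe set each. Values are on a log2 scale from 2.04, the lowest value of the table, to 15.1, so that a difference of 1 is a doubling. On each array 30.7% to 32.4% of all probe sets sat at the lowest value, and changes that reach it are compressed. The median over probe sets lay between 5.94 and 6.05 on the 9 arrays. Xist and Eif2s3y, read as markers of sex in these mice, followed the labelled sex on all 9. They did not on 1 of the other 12 arrays: nontransgenic 1, labelled male, had Xist at 11.97 and Eif2s3y at 2.04. It entered the fit as labelled, and with sex read from Xist on every array 1319 genes passed (763 higher, 556 lower) against 1334 with the labelled sex. The difference between 3' and 5' beta-actin probe sets, which grows as RNA breaks, was 1.75 ± 0.35 (SD, n = 5) in dNLS bigenic and 1.39 ± 0.03 (SD, n = 4) in WT bigenic arrays (exact permutation test, two-sided p = 0.0794, adjusted over 2 measures 0.159, smallest possible p 0.00794). Pan-neuronal markers had a mean level of 12.05 to 12.25 in dNLS bigenic and 12.14 to 12.3 in WT bigenic cortex, the highest of all marker lists. Choroid plexus markers lay between 3.21 and 4.78. Striatal markers ranged from 6.97 to 10.13 within dNLS bigenic and from 8.81 to 10.28 within WT bigenic cortex, so the pieces differed in how much of this signal they held, and its part in the results was not tested. The labels do not say whether the mice were littermates, and p-values measure the spread between these animals.

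In cortex with cytoplasmic TDP-43, 12 of 41 integrated stress response genes and 8 of 18 aminoacyl-tRNA synthetase genes were higher than in cortex with wild-type TDP-43, and 2 stress response genes were lower. Lower were 5 of 22 immediate early transcription factors, with 1 higher, 5 of 15 microglia markers and 4 of 26 sarcomere genes. Of the 12393 genes, 1334 passed an adjusted p of 0.05 (10.8%; limma, Benjamini-Hochberg), with 773 higher in dNLS bigenic cortex (6.24%) and 561 lower (4.53%). Among the 9097 genes above the lowest value on a bigenic array the share called was 14.7%, and most lists described below consist largely of such genes. A change of at least 2-fold was seen for 145 of the higher and 92 of the lower genes. The 5 and 4 arrays did not overlap for 2586 genes (20.9%), among them 1183 of the 1334 called. Along the first principal component of the 9 arrays, which held 50.6% of their variance, dNLS bigenic arrays lay from 12 to 28.2 and WT bigenic arrays from -31.5 to -19.4. The count was 817 without WT bigenic 1, the only male of its group. With each bigenic group taken relative to nontransgenic mice of its own line, of which line WT12 had 2, 440 genes passed and 1333 of the 1334 kept their direction. The 3' to 5' beta-actin difference was 1.47 and 1.62 in those 2 mice and 1.46 to 8.2 in nontransgenic mice of line NLS4. RNA quality thus differed between the own-line baselines, and its part in this comparison was not tested.

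**Figure D1:**
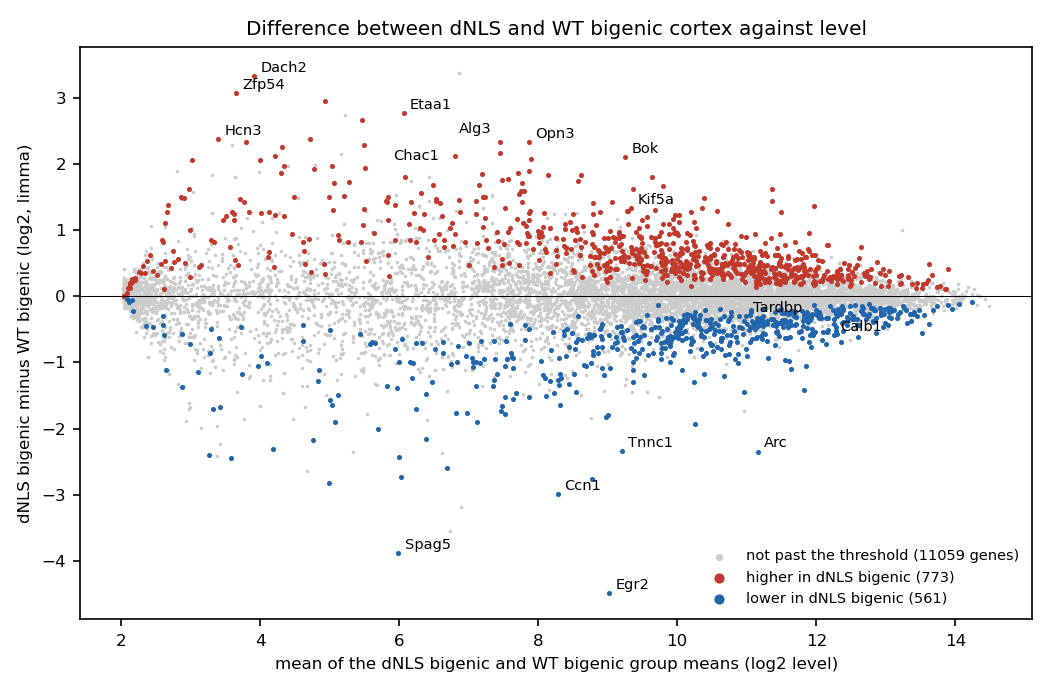
Each point is 1 of 12393 genes, plotted by the mean of its dNLS bigenic and WT bigenic log2 levels and its log2 difference, dNLS bigenic minus WT bigenic; colour marks the 773 genes higher and the 561 lower at an adjusted p of 0.05. Egr2 has the lowest difference, -4.49, and Dach2 the highest of the called genes, 3.33, and the genes at the left edge sit at the lowest value of the table.

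The nontransgenic level stood nearer to the WT bigenic level for most of these genes. It was nearer to WT bigenic for 676 of the 773 higher genes and for 484 of the 561 lower ones, together 87.0%. Of the 9097 genes above the lowest value on a bigenic array, called or not, 5303 were nearer to WT bigenic. The WT bigenic mean lay within the range of the 8 nontransgenic arrays for 923 of the 1334 genes, and the dNLS bigenic mean for 269. These range counts were not made over all genes. The ranges include nontransgenic 4 and 6, the arrays with the largest beta-actin differences (4.7 and 8.2), and the part of this was not tested. For 174 of the 1334 genes the nontransgenic mean was nearer to dNLS bigenic.

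Tardbp itself was read by 4 probe sets, which did not move alike. Which of them detect the mouse transcript, the transgene or both is not given in the sources used here, so none is a check of the transgene. The brightest had levels of 10.98, 11, 11.01, 10.79 and 10.73 in dNLS bigenic and 11.12, 11.09, 10.93 and 11.07 in WT bigenic cortex, which overlap, and did not pass the test (log2 -0.18, SE 0.08, adjusted p = 0.218). The next, ranked by mean level, was 9.56, 9.53, 9.62, 9.56 and 9.38 in dNLS bigenic against 10.76, 10.63, 10.45 and 10.68 in WT bigenic cortex. Here all dNLS bigenic arrays lay below every WT bigenic array and below the nontransgenic range of 10.59 to 11.07 (log2 -1.11, SE 0.10, adjusted p = 3.5e-06 by limma over all probe sets). The remaining pair gave differences of -0.44 (adjusted p = 0.569) and 0.63 (adjusted p = 0.112).

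**Figure D2:**
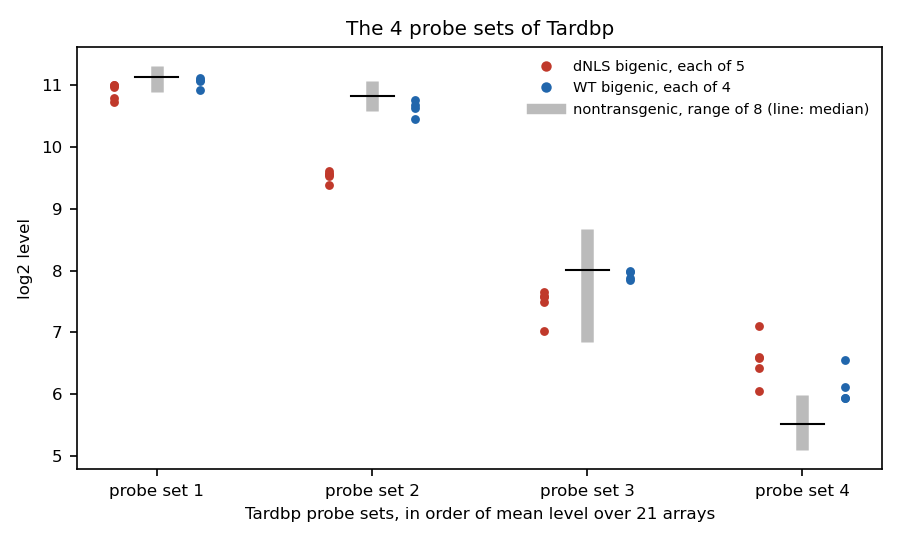
Log2 level of the 4 Tardbp probe sets on each array, with probe sets ordered by mean level; each point is 1 bigenic mouse, and grey bars give the range of the 8 nontransgenic mice with a line at their median. The second probe set is between 9.38 and 9.62 in dNLS bigenic cortex and at 10.45 or above in every WT bigenic array.

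Among the genes with the largest increases were 2 nuclear proteins, Dach2 and Zfp54, that were near the lowest value in WT bigenic cortex. Dach2, a DNA-binding transcription cofactor, was 6.51, 4.8, 5.11, 5.56 and 5.39 in dNLS bigenic against 2.27, 2.16, 2.74 and 2.27 in WT bigenic cortex (log2 3.33, SE 0.55, limma adjusted p = 7.0e-04). Its dNLS monogenic levels were 2.07 to 2.26 and its nontransgenic median 2.22, with 1 nontransgenic array at 5.29. Relative to nontransgenic mice of the same line the difference was 2.64 and did not pass (adjusted p = 0.0842). Zfp54, a zinc finger gene, was 6.11, 4.85, 4.97, 5.82 and 4.41 against 2.07, 2.07, 2.08 and 2.04 (log2 3.08, SE 0.28, limma adjusted p = 2.9e-06). The WT bigenic values were at or next to the lowest value, so the 8.47-fold difference is compressed. No nontransgenic array exceeded 2.84. Within the own-line comparison Zfp54 kept a difference of 3.0 (adjusted p = 8.5e-04).

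Tnfrsf12a, the receptor for the cytokine TWEAK, was 7.32, 6.5, 7.09, 6.42 and 6.78 in dNLS bigenic and 3.63, 4.05, 5.19 and 3.63 in WT bigenic cortex (log2 2.67, SE 0.32, limma adjusted p = 3.6e-05). Its other probe set gave 2.51, and the nontransgenic arrays reached 4.51 at most. Etaa1, an activator of the ATR kinase at stalled replication forks, was 7.64, 7.27, 7.68, 7.52 and 7.8 against 5.0, 4.47, 4.28 and 4.45 (log2 2.77, SE 0.33, limma adjusted p = 3.9e-05). Rpp40, a protein subunit of ribonuclease P, was 6.24, 5.81, 6.5, 6.31 and 6.46 against 3.71, 3.45, 3.71 and 3.49 (log2 2.95, SE 0.64, limma adjusted p = 0.00587). The groups were apart for all of these genes, though a single nontransgenic array held Rpp40 at 7.25. That array, nontransgenic 6, had the largest 3' bias of the series, with a beta-actin difference of 8.2, and the part of this bias in its levels was not tested. Without it and the array with the next largest bias, the Rpp40 difference was 2.69 (adjusted p = 4.3e-07) and that of Dach2 3.12 (adjusted p = 2.0e-06).

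Hcn3, a hyperpolarisation-activated channel subunit, had the lowest adjusted p of all genes. It was 4.61, 4.81, 4.56, 4.02 and 4.96 in dNLS bigenic and 2.05, 2.41, 2.07 and 2.29 in WT bigenic cortex (log2 2.38, SE 0.17, limma adjusted p = 5.4e-07). All nontransgenic arrays were at 2.65 or below, and the own-line difference was 2.19 (adjusted p = 2.9e-04). Alg3, a mannosyltransferase that builds the precursor of N-linked glycans, was 8.53, 8.75, 8.77, 9.15 and 8.12 against 6.2, 6.29, 6.44 and 6.03 (log2 2.34, SE 0.26, limma adjusted p = 1.7e-05). Gla, the lysosomal alpha-galactosidase, rose by 2.26 (limma adjusted p = 5.4e-06), from 2.79 to 3.72 in WT bigenic to 4.98 to 5.7 in dNLS bigenic cortex. The other large increases were those of the light-sensing protein family member Opn3 (2.34, adjusted p = 1.9e-04), the myosin Myo7a (2.38, adjusted p = 0.00142) and the mitochondrial fission regulator Mtfr1 (2.29, adjusted p = 7.0e-04). For Opn3, Myo7a and Mtfr1 the own-line differences kept their direction and had adjusted p values of 0.0562, 0.071 and 0.0991. Bok, a BCL-2 family member, rose by 2.11 (adjusted p = 4.7e-04), and the pro-apoptotic Bid by 1.43 (adjusted p = 0.00347). Their own-line differences of 1.7 and 1.17 did not pass (adjusted p = 0.0636 and 0.163). Bid belongs to the list of p53 targets and apoptosis genes, of which 2 of 26 rose and 3 fell (19.2% called, against 10.8% of all genes), with a median of -0.02. The other gene of the list that rose was the nuclease Aen (0.95, adjusted p = 0.00883), a call lost without WT bigenic 1 (0.0551). Those that fell were Btg2, described with the activity-induced genes, Perp (-0.63, adjusted p = 0.0283) and Apaf1 (-0.57, adjusted p = 0.0361), which forms the apoptosome. The Perp call was lost without dNLS bigenic 2, 3 or 5 or WT bigenic 1 or 2 (adjusted p from 0.0552 to 0.0875), and the Apaf1 call without any array other than WT bigenic 2 (0.0519 to 0.103). Without WT bigenic 1, 1 gene of the list rose and none fell. In the own-line comparison Aen was the 1 gene of the p53 and apoptosis list that passed (1.33, adjusted p = 0.0226).

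**Figure D3:**
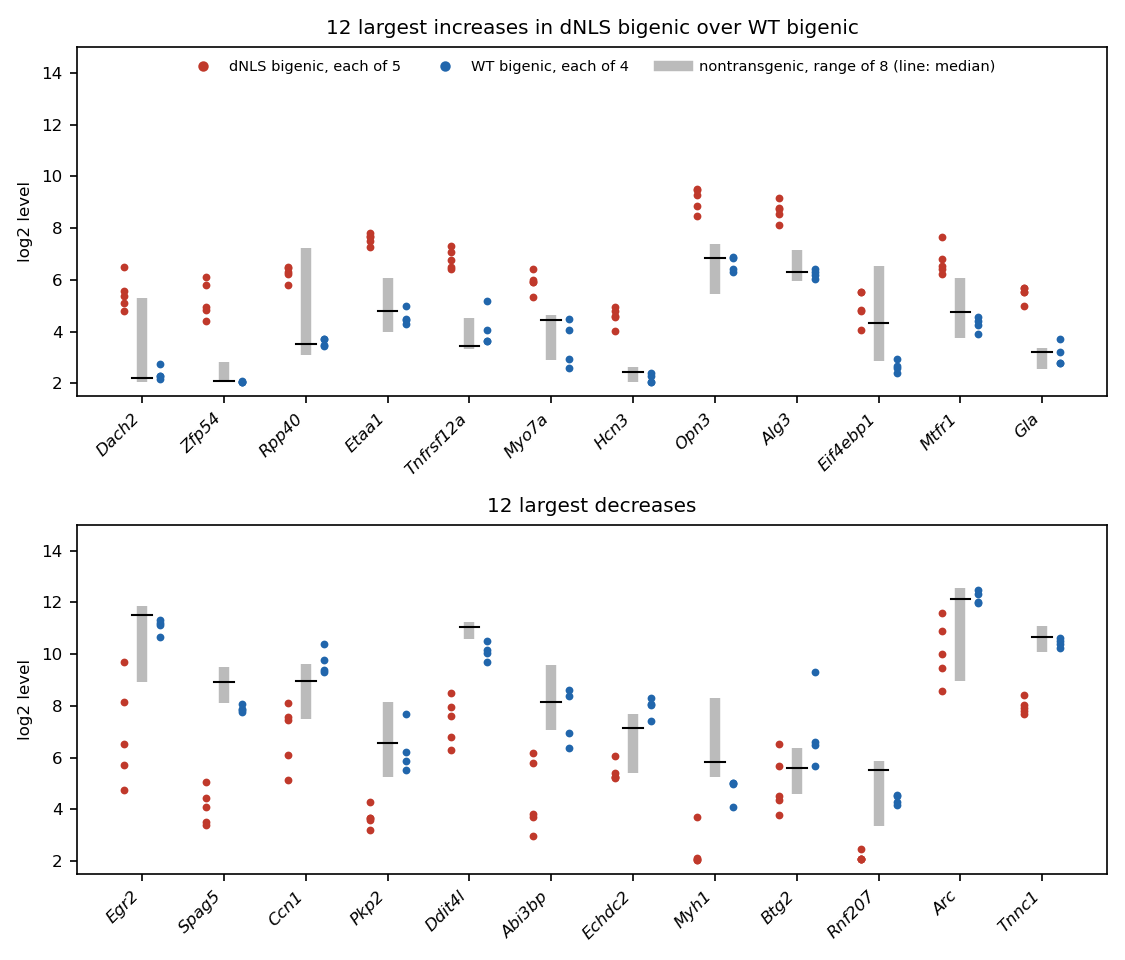
Log2 levels on each array for the 12 genes with the largest increases and the 12 with the largest decreases past an adjusted p of 0.05; each point is 1 bigenic mouse, and grey bars give the range of the 8 nontransgenic mice with a line at their median. Btg2 is the gene of these whose dNLS bigenic and WT bigenic arrays overlap, and Egr2 has the widest spread within dNLS bigenic, from 4.73 to 9.7.

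The largest decrease was that of Egr2, a transcription factor induced by neuronal activity. Egr2 was 9.7, 6.53, 8.16, 5.7 and 4.73 in dNLS bigenic and 11.11, 11.19, 10.64 and 11.33 in WT bigenic cortex (log2 -4.49, SE 0.82, limma adjusted p = 0.00151). The dNLS bigenic arrays differed widely among themselves, and all lay below the WT bigenic arrays. The other probe set gave -5.03, and nontransgenic arrays ran from 8.93 to 11.85. Relative to nontransgenic mice of the same line the Egr2 difference was -3.25 and did not pass (adjusted p = 0.152). Spag5, a protein of the mitotic spindle, was 4.1, 4.43, 3.49, 3.39 and 5.05 against 7.88, 7.85, 7.75 and 8.08 (log2 -3.88, SE 0.38, limma adjusted p = 5.6e-06). Its nontransgenic levels were higher still, 8.1 to 9.49, and its own-line difference was -4.54 (adjusted p = 2.9e-04). A second Spag5 probe set near the lowest value gave -0.82 (adjusted p = 0.227).

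Ddit4l, an inhibitor of mTOR signalling related to REDD1, was 7.97, 8.5, 7.6, 6.31 and 6.8 in dNLS bigenic and 10.51, 10.15, 10.05 and 9.7 in WT bigenic cortex (log2 -2.77, SE 0.37, limma adjusted p = 9.3e-05). Its nontransgenic range, 10.58 to 11.23, lay above both groups. Ccn1, a secreted matrix protein, fell by 2.99 (adjusted p = 0.00373), from 9.31 to 10.37 in WT bigenic to 5.14 to 8.12 in dNLS bigenic cortex. The desmosomal plakophilin Pkp2 fell by 2.83 (adjusted p = 0.00801), and Echdc2, a protein of the enoyl-CoA hydratase family, by 2.6 (adjusted p = 2.6e-04). Rnf207, a RING finger protein, was at 2.06 to 2.45 in dNLS bigenic against 4.16 to 4.57 in WT bigenic cortex (log2 -2.4, limma adjusted p = 0.00229). Abi3bp, an extracellular matrix protein, fell by 2.73 (adjusted p = 0.0226), a call that was lost without WT bigenic 1 (adjusted p = 0.191) or WT bigenic 2 (0.0617).

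Upstream sequences are shown for 4 genes of the integrated stress response list and the tRNA synthetase list that rose and that carry, before their annotated start, the letters bound by ATF4. The integrated stress response is a pathway in which kinases phosphorylate the initiation factor eIF2, general translation slows, and the transcription factor ATF4 is made and switches on genes for amino acid transport, amino acid synthesis and tRNA charging. The sequences are the 250 bases before the RefSeq start in GRCm38.p6, read 5′ to 3′ on the gene's strand, and capitals mark TGATGNAA or its reverse complement. Chac1 lies at chr2:119350992-119351241 (plus strand), Atf3 at chr1:191183334-191183583 (minus strand), Asns at chr6:7693210-7693459 (minus strand) and Aars at chr8:111033592-111033841 (plus strand).
Chac1: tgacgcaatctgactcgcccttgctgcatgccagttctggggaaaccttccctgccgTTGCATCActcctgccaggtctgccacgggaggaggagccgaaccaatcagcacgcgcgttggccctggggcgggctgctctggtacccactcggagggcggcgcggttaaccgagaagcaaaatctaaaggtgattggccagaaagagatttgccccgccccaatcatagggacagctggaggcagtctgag
Atf3: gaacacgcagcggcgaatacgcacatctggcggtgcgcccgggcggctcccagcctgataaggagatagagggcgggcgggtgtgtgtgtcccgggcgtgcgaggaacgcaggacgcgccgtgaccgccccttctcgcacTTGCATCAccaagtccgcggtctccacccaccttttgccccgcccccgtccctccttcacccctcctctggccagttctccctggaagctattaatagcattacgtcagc
Asns: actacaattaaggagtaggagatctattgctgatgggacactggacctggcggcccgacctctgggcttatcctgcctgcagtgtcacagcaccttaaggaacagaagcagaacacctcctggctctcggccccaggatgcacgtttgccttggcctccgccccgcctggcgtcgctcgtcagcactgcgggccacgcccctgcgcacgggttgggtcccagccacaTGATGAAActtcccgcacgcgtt
Aars: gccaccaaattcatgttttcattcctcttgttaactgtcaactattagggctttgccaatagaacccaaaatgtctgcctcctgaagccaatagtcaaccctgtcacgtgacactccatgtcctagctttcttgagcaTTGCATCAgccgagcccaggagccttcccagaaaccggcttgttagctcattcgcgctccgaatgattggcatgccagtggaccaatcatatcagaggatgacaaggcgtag
The site starts 193 bases before the start of Chac1, 110 before Atf3, 23 before Asns and 112 before Aars. In Chac1, Atf3 and Aars it reads TTGCATCA, and in Asns TGATGAAA. Over windows from 250 bases before to 50 after the start, both strands searched, a site was found in 11 of 36 integrated stress response genes with a window (30.6%), in 5 of 11 synthetase genes (45.5%) and in 309 of 9887 genes of the whole table (3.13%). Both list shares are over all members with a window, called or not. The integrated stress response list holds genes picked as members of the ATF4 pathway, so its share is no independent evidence. Among all genes higher in dNLS bigenic cortex the share was 3.26%, and among those lower 2.68%. The called genes Iars, Slc1a4 and Yars also held a site, after the start in Iars and Yars, while that of Slc1a4 began 4 bases before the start and ran across it. Atf4, Atf5, Bcat1, Eif2ak1, Kars, Mthfd2, Sars and Shmt2 had a window without these letters. For Cars, Eif4ebp1, Lars, Slc7a3 and Wars, which also rose, no window was read in this gene-by-gene search. These matches describe letters in a window and were not tested for binding.

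Of 41 integrated stress response genes measured, 27 had a difference above 0 and 11 one below 0. Past the test, 12 rose and 2 fell, 34.1% called against 10.8% of all genes, with a median difference of 0.26 against 0.00 over all genes. Chac1, which degrades glutathione and is a marker of ATF4 activity, was 8.56, 7.46, 7.65, 7.5 and 8.19 in dNLS bigenic and 6.0, 5.69, 5.78 and 5.52 in WT bigenic cortex (log2 2.13, SE 0.49, limma adjusted p = 0.00864). Mthfd2, a mitochondrial enzyme of one-carbon metabolism, was 8.86, 8.15, 8.4, 8.21 and 8.99 against 6.12, 6.35, 7.09 and 6.0 (log2 2.17, SE 0.47, limma adjusted p = 0.00587). A dimmer Mthfd2 probe set gave 2.61. Both genes separated the groups, while nontransgenic 6 held each of them at 8.56.

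Atf4 itself was 13.1, 12.89, 13.11, 12.92 and 13.15 in dNLS bigenic and 12.2, 12.25, 12.36 and 12.21 in WT bigenic cortex (log2 0.74, SE 0.19, limma adjusted p = 0.0143). Its relative Atf5 was 9.17, 9.09, 9.23, 8.72 and 9.21 against 7.86, 7.98, 8.31 and 8.04 (log2 0.98, SE 0.21, limma adjusted p = 0.00515). Neither overlapped between the groups. The Atf4 call was lost without dNLS bigenic 5 or WT bigenic 1 (adjusted p from 0.0644 to 0.0839) and the Atf5 call without WT bigenic 1 (0.0507). Asns, which makes asparagine, rose by 0.36 (adjusted p = 0.00148), and the amino acid transporters Slc7a3 by 0.97 (adjusted p = 0.00149) and Slc1a4 by 0.37 (adjusted p = 0.0119). The Slc1a4 call was lost without dNLS bigenic 5 or WT bigenic 1 (adjusted p from 0.0702 to 0.0875). Eif2ak1, one of the eIF2 kinases, rose by 0.77 (adjusted p = 0.00406). Shmt2, the mitochondrial serine hydroxymethyltransferase, rose by 1.71 (adjusted p = 0.0179), a call lost without dNLS bigenic 5 (adjusted p = 0.101) or WT bigenic 1 (0.07). The nontransgenic mean of Shmt2, 7.85 (range 6.98 to 9.16), lay between the dNLS bigenic mean of 8.66 and the WT bigenic mean of 6.88.

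Several list members were less firm or did not move. Atf3, another stress-induced transcription factor, was 3.93, 2.06, 3.17, 2.11 and 4.27 against 2.05, 2.05, 2.53 and 2.06, so that 2 dNLS bigenic arrays stayed near the lowest value. Its call (log2 1.11, limma adjusted p = 0.049) was lost without any array other than dNLS bigenic 2 and dNLS bigenic 4, with adjusted p from 0.0574 to 0.262. Eif4ebp1, an inhibitor of cap-dependent translation, rose by 2.33 (adjusted p = 0.0325), a call also lost without any array other than dNLS bigenic 2 and dNLS bigenic 4, with adjusted p from 0.0518 to 0.116. Its nontransgenic mean, 4.29 (range 2.85 to 6.53), was nearer to the dNLS bigenic mean of 4.96 than to the WT bigenic mean of 2.65. Ddit3, the transcription factor CHOP, was 10.95 to 11.53 against 10.52 to 11.21 and did not pass (log2 0.40, adjusted p = 0.235). Trib3 was at the lowest value on all 9 arrays. Eif2ak2, the interferon-inducible eIF2 kinase PKR, fell by 1.11 (adjusted p = 0.0183), and Xpot, the tRNA exporter, by 0.53 (adjusted p = 0.0348). The Eif2ak2 call was lost without dNLS bigenic 5 (adjusted p = 0.101) or WT bigenic 1 (0.107), and the Xpot call without any array other than dNLS bigenic 1, with adjusted p from 0.0514 to 0.12. Without dNLS bigenic 5, 6 genes of the integrated stress response list rose, and without WT bigenic 1, 5 did. In the own-line comparison Atf4 was the 1 gene of the list that rose and Xpot the 1 that fell (6 higher and 1 lower at an unadjusted p under 0.05). The largest increases did not pass there, with 1.03 for Chac1 (adjusted p = 0.509), 1.23 for Mthfd2 (0.376), 1.11 for Shmt2 (0.451), 0.86 for Atf3 (0.487) and 0.62 for Eif4ebp1 (0.868). The NLS4 baseline includes nontransgenic 6, the array of largest 3' bias, which held Chac1 and Mthfd2 at 8.56, and the part of this was not tested.

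Aminoacyl-tRNA synthetases, which load amino acids onto tRNAs, were higher in 8 of 18 genes, and none fell (0 at an unadjusted p under 0.05 by limma). This is 44.4% called, the median difference was 0.37, and 16 of 18 were above 0. Cars, for cysteine, was 8.38, 8.63, 8.61, 8.56 and 8.21 in dNLS bigenic and 7.04, 6.92, 7.33 and 6.84 in WT bigenic cortex (log2 1.6, SE 0.38, limma adjusted p = 0.00994). Wars, for tryptophan, was 11.03, 11.01, 11.04, 10.91 and 11.21 against 10.6, 10.65, 10.57 and 10.55 (log2 0.46, SE 0.05, limma adjusted p = 2.5e-05). The arrays were apart for both, and the nontransgenic levels of Wars, 10.49 to 10.6 lay beside the WT bigenic ones. Lars, for leucine, rose by 0.63 (adjusted p = 0.00279), Yars, for tyrosine, by 0.56 (adjusted p = 0.00251), Sars, for serine, by 0.42 (adjusted p = 0.015) and Kars, for lysine, by 0.33 (adjusted p = 0.0117). The Sars call was lost without dNLS bigenic 5 or WT bigenic 1 (adjusted p from 0.0853 to 0.0898) and the Kars call without WT bigenic 1 (0.0705). Iars, for isoleucine, rose by 0.43 (adjusted p = 0.0497), a call kept only without dNLS bigenic 4 or WT bigenic 3, and otherwise lost (0.0565 to 0.281). Aars, for alanine, rose by 0.58 (adjusted p = 0.0197), a call lost without dNLS bigenic 5 (adjusted p = 0.117), WT bigenic 1 (0.064) or WT bigenic 4 (0.0521). The mean level over all 18 aminoacyl-tRNA synthetases was 10.73, 10.72, 10.69, 10.64 and 10.75 in dNLS bigenic and 10.29, 10.33, 10.44 and 10.28 in WT bigenic cortex, with nontransgenic arrays from 9.98 to 10.28. Without WT bigenic 1, 4 of the 18 passed. Of the 18, Wars alone passed in the own-line comparison (8 higher and 0 lower at an unadjusted p under 0.05 by limma), and Cars (1.72, adjusted p = 0.119), Lars (0.45, 0.205), Yars (0.33, 0.257) and Aars (0.2, 0.751) did not pass.

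**Figure D4:**
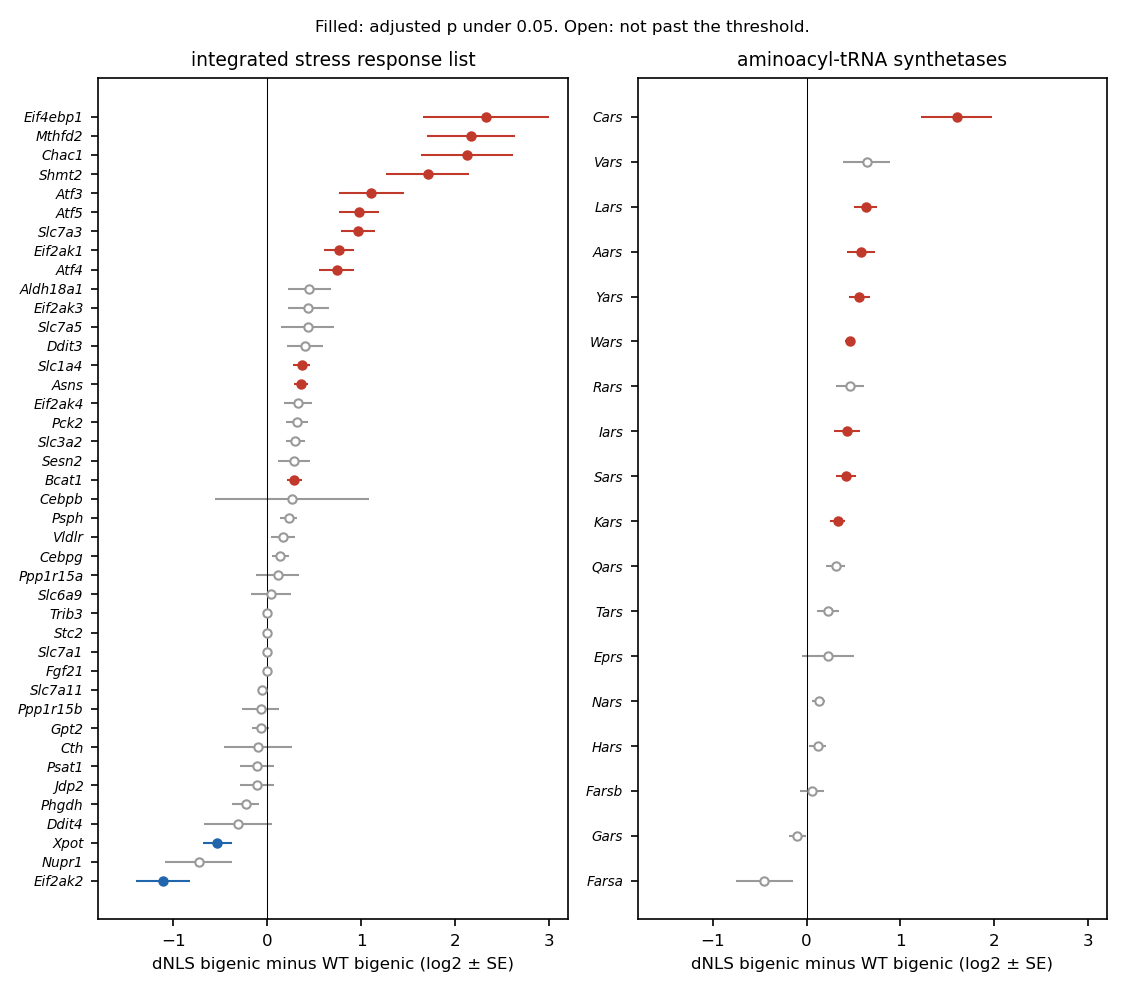
Log2 difference, dNLS bigenic minus WT bigenic, of the 41 integrated stress response genes and the 18 aminoacyl-tRNA synthetases; bars are the standard error of the fit, and filled points passed an adjusted p of 0.05. Most points lie to the right of 0, from Eif4ebp1 at 2.33 down to Eif2ak2 at -1.11 and from Cars at 1.6 down to Farsa at -0.45.

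Of 46 cytosolic ribosomal proteins 7 rose and none fell (2 lower at an unadjusted p under 0.05, median 0.09). The share called was 15.2%, against 10.8% of all genes and 14.7% of those above the lowest value. Of 74 mitochondrial ribosomal proteins 14 rose and 2 fell (21.6% called, median 0.08). Rpl14, of the large subunit, was 8.8, 8.9, 8.99, 9.23 and 8.76 in dNLS bigenic and 7.75, 7.89, 7.89 and 7.75 in WT bigenic cortex (log2 1.1, SE 0.10, limma adjusted p = 2.9e-06). Its nontransgenic and dNLS monogenic levels both lay between 7.65 and 7.93, inside or next to the WT bigenic range. Ribosomal protein genes have many processed copies in the genome, and a probe set that also detects a copy cannot be recognised in these values. Rpsa rose by 0.41 (adjusted p = 4.3e-05), Rpl8 by 0.31 (adjusted p = 5.8e-06), and the mitochondrial Mrps28 by 0.59 (adjusted p = 3.2e-04) and Mrpl54 by 0.94 (adjusted p = 0.00349). Eif5b, which joins the ribosomal subunits, rose by 0.56 (adjusted p = 8.8e-04) among 53 translation factors, of which 7 rose and 2 fell (17% called, median 0.07). Those 7 include Eif4ebp1 and Eif2ak1, and the 2 include Eif2ak2, which the integrated stress response list also holds. Without WT bigenic 1 the counts that rose were 4 cytosolic ribosomal proteins, 9 mitochondrial ribosomal proteins and 4 translation factors. Set against nontransgenic mice of the same line, 6 cytosolic ribosomal proteins rose, with Rpl14, Rpsa and Rpl8 among them (19 higher and 0 lower at an unadjusted p under 0.05 by limma), as did 3 mitochondrial ones (11 higher and 6 lower). No translation factor passed there (4 higher and 2 lower at an unadjusted p under 0.05).

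Nuclear import receptors were among the genes that rose by small amounts. Of 47 nuclear transport genes 7 rose and 1 fell, with a median of 0.05. The share called was 17%, against 10.8% of all genes and 14.7% of those above the lowest value. Kpna4, an importin alpha that carries proteins with a classical nuclear localisation signal, was 11.42, 11.32, 11.36, 11.39 and 11.44 in dNLS bigenic and 10.87, 10.68, 10.82 and 10.87 in WT bigenic cortex (log2 0.56, SE 0.05, limma adjusted p = 2.9e-06). Its nontransgenic range, 10.69 to 10.91, covered most WT bigenic values, and a dimmer probe set gave 0.72. The dNLS monogenic arrays, 10.98 to 11.1, lay above all nontransgenic and WT bigenic arrays and below all dNLS bigenic ones. How much of the Kpna4 difference is present without tTA was not tested. Kpnb1, the importin beta that works with it, rose by 0.22 (adjusted p = 0.00927), Kpna2 by 0.28 (adjusted p = 0.013) with overlapping arrays, and the exportin Xpo1 by 0.2 (adjusted p = 0.0117). Without WT bigenic 1 the calls of Kpna2 (adjusted p = 0.0817) and Xpo1 (0.122) were lost. Ipo9 rose by 0.6 (adjusted p = 0.0286) and Ipo4 by 0.38 (adjusted p = 0.0241). The Ipo9 call was lost without dNLS bigenic 2 or 5 or WT bigenic 1 or 2 (adjusted p from 0.05 to 0.16), and the Ipo4 call without dNLS bigenic 3 or 5 or WT bigenic 1 (0.0511 to 0.203). Without WT bigenic 1, 2 nuclear transport genes rose. In the own-line comparison Kpna4 (0.55, adjusted p = 8.5e-04) and Kpnb1 rose and Xpot fell.

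Immediate early transcription factors are genes that neurons switch on within minutes of activity. Of 22, 5 fell and 1 rose (27.3% called, against 10.8% of all genes), the median was -0.49, and 17 were below 0. Jun was 10.21, 10.55, 10.34, 10.39 and 10.34 in dNLS bigenic and 11.54, 11.26, 11.35 and 11.39 in WT bigenic cortex (log2 -1.01, SE 0.11, limma adjusted p = 1.1e-05). The groups were apart, nontransgenic arrays ran from 10.88 to 11.38, and the other Jun probe set gave -1.27. Fos was 12.41, 11.19, 11.74, 10.65 and 10.02 against 12.6, 12.5, 12.18 and 12.48 (log2 -1.41, SE 0.42, limma adjusted p = 0.04). Here dNLS bigenic 1 lay within the WT bigenic range. Egr1 fell by 0.55 (adjusted p = 0.0106) and Junb by 1.38 (adjusted p = 0.0311), both with overlapping arrays, and Klf6 rose by 0.58 (adjusted p = 0.00185). The Egr1 call was lost without dNLS bigenic 5 (adjusted p = 0.0662). Jun was the 1 immediate early factor that passed in the own-line comparison (-0.76, adjusted p = 0.0043; 1 higher and 3 lower at an unadjusted p under 0.05). Fos (-0.56, adjusted p = 0.776) and Junb (-0.43, 0.828) did not pass there.

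Among 19 activity-induced effectors 3 fell and 1 rose (21.1% called), and none passed in the own-line comparison (2 higher and 3 lower at an unadjusted p under 0.05 by limma). Arc, which controls the removal of glutamate receptors from synapses, was 11.6, 10.02, 10.9, 8.57 and 9.47 against 12.01, 12.48, 11.98 and 12.32 (log2 -2.35, SE 0.69, limma adjusted p = 0.035). All dNLS bigenic arrays were below the WT bigenic ones, but nontransgenic arrays went down to 8.97. Rgs4 fell by 0.32 (adjusted p = 0.0203) and Rgs2, another regulator of G protein signalling, rose by 0.46 (adjusted p = 0.00406). The calls of Arc and Fos were lost without dNLS bigenic 2, 4 or 5 or without any WT bigenic array (adjusted p from 0.0593 to 0.103 for Arc and from 0.0587 to 0.209 for Fos). That of Junb was lost without dNLS bigenic 2, 4 or 5 or WT bigenic 1, 2 or 4 (0.0526 to 0.151), and that of Rgs4 without dNLS bigenic 5 or WT bigenic 1 or 2 (0.0589 to 0.139). When dNLS bigenic 5 was left out, 2 immediate early transcription factors fell, and when dNLS bigenic 2 or 4 or WT bigenic 1, 2 or 4 was, 3 did. Btg2, an antiproliferative gene induced by p53 and by activity, fell by 2.43 (adjusted p = 0.0355) with overlapping arrays, and this call was lost without dNLS bigenic 2, 4 or 5 or WT bigenic 1, 2 or 4 (0.0533 to 0.319).

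Of 15 markers of microglia, the immune cells of the brain, 5 fell and none rose (0 higher at an unadjusted p under 0.05 by limma), 14 were below 0, and the median was -1.03. The share called was 33.3%, against 10.8% of all genes. Tyrobp, an adaptor of microglial receptors, was 9.15, 9.31, 9.48, 9.45 and 9.93 in dNLS bigenic and 10.38, 10.29, 11.95 and 10.14 in WT bigenic cortex (log2 -1.12, SE 0.28, limma adjusted p = 0.0157). Tmem119, a marker of resident microglia, was 8.3, 8.46, 8.3, 8.0 and 8.66 against 8.85, 9.1, 9.6 and 9.36 (log2 -0.88, SE 0.18, limma adjusted p = 0.00373). Both genes separated the groups, and their nontransgenic ranges, 9.58 to 10.1 and 8.52 to 9.32, overlapped 1 group or both. No microglia marker passed in the own-line comparison (0 higher and 5 lower at an unadjusted p under 0.05 by limma), with -1.04 for Tyrobp (adjusted p = 0.223) and -0.88 for Tmem119 (0.0877). For Tyrobp all WT bigenic arrays lay above the nontransgenic range, and all dNLS bigenic arrays other than dNLS bigenic 5 below it. In cortex RNA, a difference between the groups in the number of microglia and one in transcript per cell cannot be told apart.

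The WT bigenic side of this difference was uneven. The mean over the 15 microglia markers was 7.21, 7.57, 7.59, 7.67 and 7.98 in dNLS bigenic and 8.32, 8.42, 9.63 and 8.2 in WT bigenic cortex, with nontransgenic arrays from 7.67 to 8.24. WT bigenic 3 stood above all other arrays. For Trem2, a receptor of activated microglia, that array was at 8.05 while the other WT bigenic arrays lay between 2.6 and 3.31 and the dNLS bigenic arrays between 2.04 and 2.08 (log2 -1.99, adjusted p = 0.126). Over the 19 markers of activated microglia its mean was 6.45, against 4.74 to 4.88 in the other WT bigenic and 4.48 to 4.74 in the dNLS bigenic arrays, and none of the 19 passed the test by limma (3 lower at an unadjusted p under 0.05). Ctss, a microglial cathepsin, fell by 0.57 (adjusted p = 0.0482), a call lost without dNLS bigenic 1, 2, 3 or 4 or WT bigenic 1 or 3 (0.0515 to 0.174). The receptor gene Gpr34 fell by 1.28 (adjusted p = 0.0344) and the complement subunit gene C1qc by 1.19 (adjusted p = 0.0421). The C1qc call was lost without WT bigenic 3 (adjusted p = 0.103), as was that of Gpr34 (0.0593). Each was also lost without dNLS bigenic 1, 2 or 3 or WT bigenic 1, C1qc in addition without dNLS bigenic 4 or WT bigenic 2, and Gpr34 without dNLS bigenic 5 (0.0516 to 0.0986 for C1qc and 0.0596 to 0.124 for Gpr34). The count of microglia markers that fell was 2 without dNLS bigenic 1, 2 or 3 or WT bigenic 1, and 3 without dNLS bigenic 4 or WT bigenic 3.

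Interferon-induced genes followed the same unevenness. Of 23 genes of the interferon response and MHC class I list, 5 fell and none rose (0 higher at an unadjusted p under 0.05 by limma), 22 were below 0, and the median was -0.22. The share called was 21.7%, and in the own-line comparison 1 fell, Psmb10 (6 lower at an unadjusted p under 0.05). The mean over the list was 4.52, 4.24, 4.36, 4.5 and 4.62 in dNLS bigenic and 4.89, 4.98, 6.0 and 4.63 in WT bigenic cortex, again highest in WT bigenic 3. Nontransgenic arrays ran from 4.43 to 4.73, so WT bigenic 1, 2 and 3 lay above them and dNLS bigenic 2 and 3 below. Psmb10, a subunit of the immunoproteasome, was 10.37, 10.57, 10.42, 10.38 and 10.32 against 11.02, 11.05, 11.04 and 10.96 (log2 -0.58, SE 0.08, limma adjusted p = 1.5e-04), even across the WT bigenic arrays. The antiviral genes Bst2 (-2.17, adjusted p = 0.0338), Ifit1 (-1.71, adjusted p = 0.0444) and Rsad2 (-1.12, adjusted p = 0.0491) and the transcription factor Irf9 (-1.49, adjusted p = 0.0387) also fell. Each of these 4 calls was lost without dNLS bigenic 2 or 3 or WT bigenic 2, and without 3 or 4 further arrays (adjusted p from 0.0542 to 0.15). Those further arrays were dNLS bigenic 1 for Bst2, Ifit1 and Rsad2, dNLS bigenic 4 and 5 for Ifit1, Irf9 and Rsad2, WT bigenic 1 for Bst2, Ifit1 and Rsad2, and WT bigenic 3 for Bst2 and Irf9. The count of interferon response and MHC class I genes that fell was 1 or 2 without any single dNLS bigenic array or without WT bigenic 1 or 2, and 8 without WT bigenic 4. Of 15 astrocyte markers 14 were below 0, and 1, the folate enzyme Aldh1l1, fell (-0.6, adjusted p = 0.0114). The astrocyte share called was 6.67%, against 10.8% of all genes. Gfap was 9.49 to 10.96 against 10.56 to 12.62, highest in WT bigenic 3, and did not pass (log2 -1.03, adjusted p = 0.0703).

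**Figure D5:**
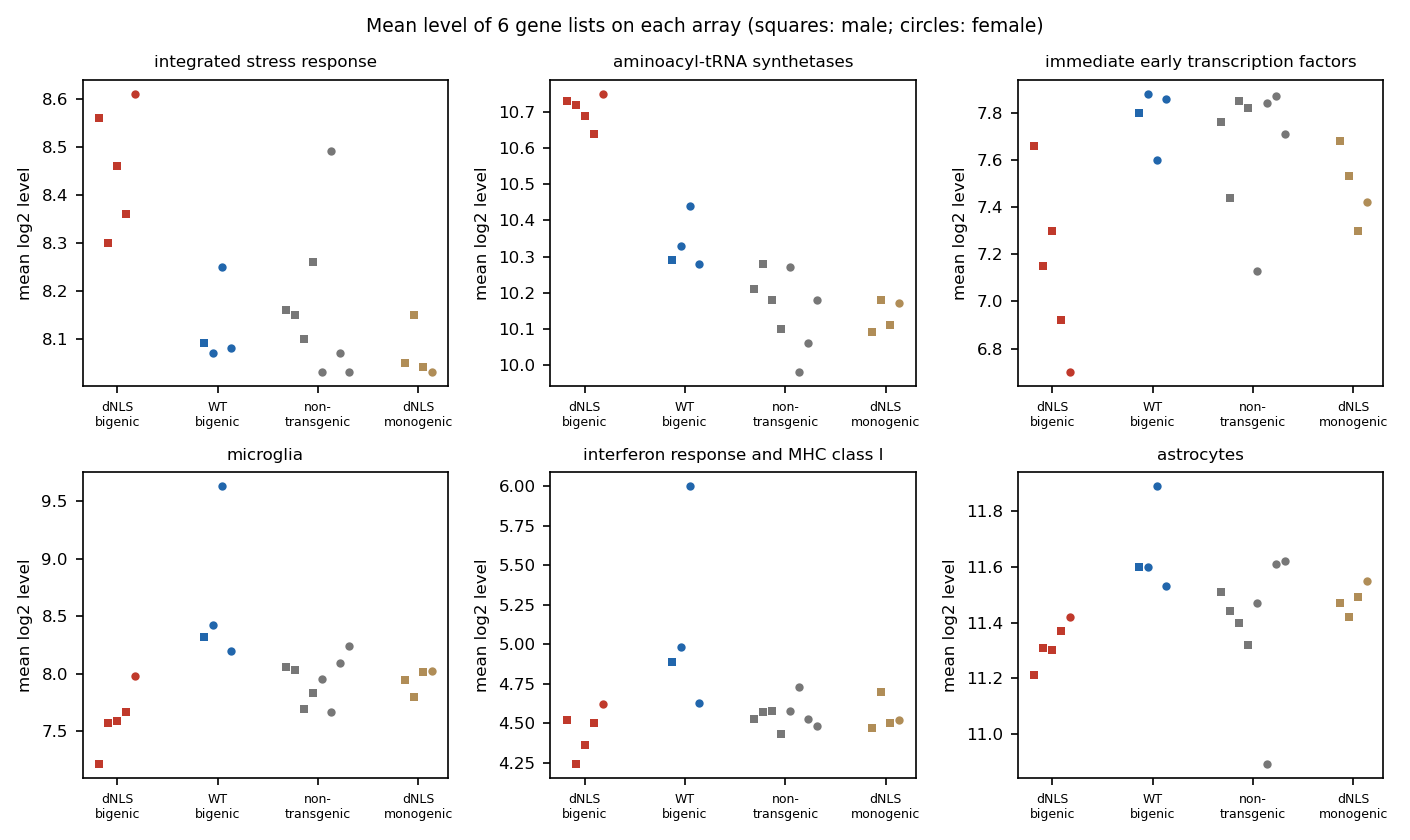
Mean log2 level over the measured genes of each list on each array, by group; each point is 1 mouse, square for male and circle for female. WT bigenic 3 stands apart for microglia markers (9.63) and for interferon response genes (6.0), whereas all dNLS bigenic arrays are above all WT bigenic arrays for tRNA synthetases.

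Markers of excitatory neurons and cortical layers held more decreases than increases. Of 8 excitatory neuron markers 2 fell and 1 rose (37.5% called), and of 11 deep-layer markers 2 fell and 1 rose (27.3%). Of 10 upper-layer markers 1 fell and none rose (0 higher at an unadjusted p under 0.05 by limma). The upper-layer share called was 10%, against 10.8% of all genes. Crym, a thyroid hormone-binding protein of deep-layer neurons, was 9.38, 9.82, 9.84, 10.11 and 9.74 in dNLS bigenic and 10.72, 11.25, 10.75 and 11.26 in WT bigenic cortex (log2 -1.18, SE 0.18, limma adjusted p = 4.2e-04). Calb1, a calcium buffer of upper-layer neurons, was 11.87, 11.95, 11.97, 12 and 12.01 against 12.59, 12.48, 12.48 and 12.67 (log2 -0.59, SE 0.06, limma adjusted p = 1.7e-05). Both groups lay below the nontransgenic range of Calb1, 12.69 to 12.99, and the dNLS bigenic group was the lower. Neurod1, a neuronal transcription factor, fell by 1.01 (adjusted p = 9.2e-05). Of 7 hippocampus markers 2 fell, Neurod1 and Wfs1, a membrane protein of the endoplasmic reticulum (-1.21, adjusted p = 5.2e-05), and 1 rose, Bok. Of 6 thalamus markers the receptor modifier Ramp3 fell by 1.35 (adjusted p = 0.00106) and the nuclear receptor Rora rose by 0.56 (adjusted p = 0.0222), a call lost without WT bigenic 1 (0.0953). The share called was 42.9% of hippocampus and 33.3% of thalamus markers. The other excitatory and deep-layer markers that passed were Slc17a6 (-0.59, adjusted p = 0.0257), Fezf2 (-0.61, adjusted p = 0.0379), Cplx3 (0.91, adjusted p = 0.0229) and Rtn4r (0.67, adjusted p = 0.0101). The Cplx3 call was lost without dNLS bigenic 5 or WT bigenic 1 or 4 (adjusted p from 0.0525 to 0.133), and the Slc17a6 call without dNLS bigenic 1 or 3 or WT bigenic 1, 2 or 4 (0.0516 to 0.104). The Fezf2 call was kept only without dNLS bigenic 1 or WT bigenic 1, and otherwise lost (0.0504 to 0.101). The difference relative to nontransgenic mice of the same line was -1.08 for Crym, -0.62 for Calb1, -1.35 for Wfs1, -1.03 for Neurod1 and -1.51 for Ramp3, and each passed with an adjusted p from 0.00184 to 0.0399. There Slc17a6 (-0.84, adjusted p = 0.0523), Fezf2 (-0.79, 0.131), Cplx3 (0.34, 0.738), Rtn4r (0.51, 0.29) and Rora (0.77, 0.0626) did not pass. Of 14 pan-neuronal markers (14.3% called) Thy1 rose by 0.33 (adjusted p = 3.2e-04) and Nefl, the light neurofilament, fell by 0.43 (adjusted p = 0.00482). Of 16 interneuron markers (6.25% called), the neuropeptide Npy alone passed, with a rise of 0.42 (adjusted p = 9.2e-04).

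Genes of the striated muscle sarcomere, some of which cortex also expresses, fell in 4 of 26 measured, of which 11 were above the lowest value on a bigenic array, and none rose (0 higher at an unadjusted p under 0.05 by limma). The share called was 15.4% against 10.8% of all genes, the median was 0.00, and in the own-line comparison Myh1, Myh7 and Tnnc1 fell. Tnnc1, the slow troponin C, was 7.81, 8.02, 8.4, 7.7 and 7.91 in dNLS bigenic and 10.25, 10.6, 10.5 and 10.37 in WT bigenic cortex (log2 -2.34, SE 0.21, limma adjusted p = 3.1e-06). Nontransgenic arrays ran from 10.08 to 11.07 and covered the WT bigenic values. Myh7, a slow myosin heavy chain, was 4.31, 4.77, 4.46, 6.08 and 6.05 against 6.35, 7.86, 7.47 and 8.86 (log2 -2.16, SE 0.53, limma adjusted p = 0.0124), with nontransgenic arrays above most of both, from 8.22 to 10.63. Myh1 fell by 2.45 (adjusted p = 0.0104) and Myl4 by 1.0 (adjusted p = 0.0228). The Myh1 call was lost without WT bigenic 1 (adjusted p = 0.0523), and the Myl4 call without dNLS bigenic 5 (0.0719), WT bigenic 1 (0.211) or WT bigenic 2 (0.0519). Without WT bigenic 1, 2 of the 4 striated muscle sarcomere genes fell.

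Of 58 voltage-gated channel genes 5 rose and none fell (3 lower at an unadjusted p under 0.05), and without WT bigenic 2 or WT bigenic 3 the count was 3. The share called, 8.62%, was below the 10.8% of all genes. Beside Hcn3, the calcium channel beta subunit Cacnb1 was 8.13, 8.0, 8.02, 7.8 and 7.63 in dNLS bigenic and 6.46, 6.36, 6.33 and 6.33 in WT bigenic cortex (log2 1.68, SE 0.18, limma adjusted p = 1.4e-05). The other Cacnb1 probe sets gave 0.18 and -0.04 and did not pass. Kcnab2, a potassium channel beta subunit, rose by 0.96 (adjusted p = 0.00133). At the synapse, the active zone scaffold Bsn rose by 0.84 (adjusted p = 0.00871), and the endocytic protein Amph fell by 0.4 (adjusted p = 0.0088). Of 23 glutamate and GABA receptor genes (4.35% called), Gabrd alone passed (0.48, adjusted p = 0.0464), a call lost without dNLS bigenic 1, 2, 3 or 5 or WT bigenic 1, 3 or 4 (adjusted p from 0.058 to 0.225).

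Of 27 genes linked to ALS and FTD, 3 rose and 1 fell, with a median of 0.03. The share called was 14.8%, against 10.8% of all genes and 14.7% of those above the lowest value, as all 27 were. Kif5a, a kinesin for axonal transport in which variants cause ALS, was 9.73, 9.93, 9.9, 9.77 and 10.31 in dNLS bigenic and 8.88, 9.08, 8.14 and 8.9 in WT bigenic cortex (log2 1.34, SE 0.29, limma adjusted p = 0.0058), with no nontransgenic array above 8.65. C9orf72 rose by 0.58 (adjusted p = 0.0195) and the mitochondrial protein gene Chchd10 by 0.11 (adjusted p = 0.0213), while Ubqln2, which delivers proteins to the proteasome, fell by 0.34 (adjusted p = 0.0239) with overlapping arrays. The C9orf72 call was lost without WT bigenic 1 (adjusted p = 0.0586), that of Chchd10 without dNLS bigenic 5 or WT bigenic 1 or 2 (0.0548 to 0.103), and that of Ubqln2 without dNLS bigenic 5 or WT bigenic 1, 2 or 4 (0.0627 to 0.128). Among 20 genes described elsewhere as TDP-43 targets, Nefl and the calcineurin subunit Ppp3ca fell (-0.43 and -0.24) and none rose (0 higher at an unadjusted p under 0.05), with a median of -0.01. The share called was 10%, against 10.8% of all genes. The Ppp3ca call was lost without WT bigenic 1 (adjusted p = 0.058). Stmn2, whose human transcript depends on TDP-43, was 12.48 to 12.76 against 12.85 to 12.96 and did not pass (log2 -0.28, adjusted p = 0.407). Of 39 hnRNP and splicing factor genes 3 fell and none rose (1 higher at an unadjusted p under 0.05). This share called, 7.69%, was below the 10.8% of all genes. Of 26 neuronal RNA-binding protein genes 2 rose and 4 fell (23.1% called). Among them Fxr2 rose by 0.66 (adjusted p = 7.1e-04) and Elavl1 fell by 0.72 (adjusted p = 0.0094).

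Heat shock genes were lower in 3 of 25 and higher in 1, with a median of -0.09. The share called was 16%, against 10.8% of all genes and 14.7% of those above the lowest value. In the own-line comparison 4 fell, Hspa2, Hspb1, Dnaja1 and Dnajb6. Dnaja1, a co-chaperone of HSP70, was 12.29, 12.24, 12.37, 12.25 and 12.19 in dNLS bigenic and 12.64, 12.57, 12.58 and 12.71 in WT bigenic cortex (log2 -0.43, SE 0.06, limma adjusted p = 2.5e-04). Hspa2 fell by 0.86 (adjusted p = 0.0072). Dnajb6, a chaperone that slows the aggregation of proteins, was read by 4 probe sets that disagreed. The brightest fell by 0.38 (adjusted p = 0.00345), from 12.95 to 13.07 in WT bigenic to 12.5 to 12.77 in dNLS bigenic cortex. The dimmest was 5.43, 5.15, 6.09, 3.94 and 4.61 in dNLS bigenic against 2.52, 2.32, 3.78 and 2.49 in WT bigenic cortex, with no nontransgenic array above 2.28 (log2 2.26, SE 0.36, adjusted p = 5.7e-04 by limma over all probe sets). The mean of the 4 Dnajb6 probe sets differed by 0.35, in the opposite direction to the brightest. Stip1, which links HSP70 and HSP90, rose by 0.47 (adjusted p = 0.0381), a call lost without dNLS bigenic 1, 2, 3 or 5 or WT bigenic 1 or 3 (adjusted p from 0.0503 to 0.283).

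In metabolism and protein turnover, both directions were present. Of 74 oxidative phosphorylation genes 11 rose and 7 fell, 24.3% called against 10.8% of all genes, with differences between -0.59 and 0.38. Ndufc1, of complex I, fell by 0.4 (adjusted p = 3.9e-05) and Atp5l, of the ATP synthase, by 0.46 (adjusted p = 8.0e-05). The number of oxidative phosphorylation genes that rose was 7 without dNLS bigenic 5 and 4 without WT bigenic 1. Of 24 genes of cholesterol and fatty acid synthesis 3 fell and 1 rose (16.7% called). Fdft1, the squalene synthase, was 10.33, 10.5, 10.43, 10.37 and 10.68 in dNLS bigenic and 11.39, 11.5, 10.84 and 11.42 in WT bigenic cortex (log2 -0.87, SE 0.14, limma adjusted p = 6.9e-04), and Tm7sf2, a sterol reductase, fell by 1.06 (adjusted p = 0.00237). Among 27 lysosomal genes, Gla and the glucosidase Gaa (0.88, adjusted p = 0.00355) rose and Psap fell (-0.2, adjusted p = 0.0463). The lysosomal share called, 11.1%, was near that of all genes. The Psap call was lost without any array other than dNLS bigenic 5 (adjusted p from 0.0663 to 0.119). Of 46 proteasome genes 3 rose and 5 fell (17.4% called). The proteasome counts were 1 and 4 without dNLS bigenic 5, 1 and 2 without WT bigenic 1, and 3 and 3 without dNLS bigenic 1, 2 or 3.

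Markers of oligodendrocytes, their precursors, endothelium, choroid plexus, striatum, meninges and blood, and of reactive astrocytes, had no gene past the adjusted p of 0.05 by limma, and 9 of these 75 genes had an unadjusted p under 0.05. Of 27 genes for endoplasmic reticulum chaperones and the unfolded protein response 1 rose, the ubiquitin ligase Syvn1 (0.86, adjusted p = 0.00237), and 1 fell, the disulfide isomerase Pdia6 (-0.71, adjusted p = 0.0159), with a median of 0.00. This share called, 7.41%, was below the 10.8% of all genes.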

How the data were processed

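Affymetrix MOE430A 2.0 arrays measured cerebral cortex RNA of 21 mice. Per the labels, RNA was isolated with TRIzol and labelled by linear amplification with the 1-cycle kit. The deposited values are on a log2 scale, with the base read from their range (2.04 to 15.1). The submitters' processing notes name Partek, and how background was corrected and arrays were normalized is not given in the sources used here.

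Of 22690 probe sets, 64 were controls, 20380 named 1 gene, 691 several and 1555 none in the platform annotation, and 20351 of the 20380 matched RefSeq by Entrez number (29 did not). The probe set with the highest mean over all arrays stood for a gene, giving 12393 genes, of which 4956 had more than 1. limma 3.58.1 (R 4.3.3; lmFit, eBayes with an intensity trend) fitted 4 groups and sex over the 21 arrays, and dNLS bigenic minus WT bigenic was tested with Benjamini-Hochberg adjustment over all genes at 0.05. The script was tested on simulated data. Values within 0.01 of 2.04 counted as the lowest.

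The naming rule took the 12 largest called differences in each direction, the 4 largest called in each of 47 lists (29 gene lists and 18 marker lists) and Tardbp, Xist and Eif2s3y, 132 in all. Not all of these genes and lists are described above. Among the lists left out are neuronal injury genes (33.3% called), neuropeptides and granins (23.8%), histones (20%) and neurofilament and axonal cytoskeleton genes (16.7%). Other list members were named after their values were seen. Groups, lists and tests were chosen with earlier results of these data known, so they are no independent evidence. Replicate numbers follow sample order and pair nothing. Precision is limited by the number of arrays. Tried besides were 26 settings (samples, sex, scaling, filter, probe set, weights, RNA quality, line, leaving out each array), 2 of them chosen after seeing the data, as were the same settings for Tardbp probe sets. Promoter windows are RefSeq's, GRCm38.p6, from 250 bases before to 50 after the start.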

Additional observations from a re-analysis of the deposited data

Results flagged for a closer look

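Among 264 group values screened (132 genes in 2 groups), 27 had 1 array far from the others of its group, and chance alone gives about 1 in 20. None was tested for a cause.

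Xist and Eif2s3y marked the mouse of the less common sex in each group. Xist was 11.66 in dNLS bigenic 5, the only female of its group, and 2.04 in WT bigenic 1, the only male, and Eif2s3y was 2.04 and 11.76 in the same mice.

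WT bigenic 3 was the highest of its group for the microglial genes Tyrobp (11.95, others 10.14 to 10.38) and C1qc (11.35, others 9.71 to 9.98) and for Atf3 (2.53, others 2.05 to 2.06). It was the lowest for Ubqln2 (12.66, others 12.92 to 12.94), Dnajb6 (12.95, others 13.05 to 13.07), Fdft1 (10.84, others 11.39 to 11.5) and Myh1 (4.1, others 4.96 to 5.02).

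dNLS bigenic 5 was the highest of its group for Psmf1 (9.15), Eif5b (10.97), Psap (13.3), Rnf207 (2.45) and Myh1 (3.69). It was the lowest for Ubqln2 (12.21) and Tm7sf2 (6.48).

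In dNLS bigenic 3, Gla was low (4.98, others 5.54 to 5.7) and Myl4 high (9.39, others 8.59 to 8.79). In dNLS bigenic 4, Psme1 (11.01) and Echdc2 (6.06) were high.

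In WT bigenic 2, Chga (11.31) and Perp (9.26) were high and the histone gene H2bc18 was at 2.04, with the others at 2.07 to 2.08. In WT bigenic 4, Rtn4r (8.17) and Hspa2 (10.31) were high.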

How the results depend on the processing

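The direction of the 1334 called genes was kept by 1326 to 1334 of those tested in each setting, but the number called moved. It was 2320 (1400 higher, 920 lower) with only the 9 bigenic arrays and sex, and 2778 (1564 higher, 1214 lower) with those arrays and no sex term, a setting chosen after seeing the data. It was 175 (130 higher, 45 lower) with females only, where dNLS bigenic has 1 mouse assumed to vary like the others, and 653 (337 higher, 316 lower) with males only, where WT bigenic has 1. Array weights gave 3108 (1656 higher, 1452 lower), a beta-actin covariate 2437 (1327 higher, 1110 lower), a Gapdh covariate, also chosen after seeing the data, 2257 (1245 higher, 1012 lower), and leaving out the 2 arrays of largest 3' bias 2274 (1272 higher, 1002 lower). Relative to nontransgenic mice of the same line, 440 passed (206 higher, 234 lower). Leaving out 1 array in turn gave 817 to 1301 (464 to 770 higher, 353 to 531 lower), lowest without WT bigenic 1. The other settings were within 1.5 times of 1334. The cause of these changes was not tested, beyond the smaller number of mice where mice were left out.

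Of 129 genes taken by the naming rule that passed, 73 kept their call without any 1 of the 9 arrays and 56 did not. All 129 kept their direction with females only, with males only and relative to their own line, where 43 passed. Dnajb6 turned to 0.35 with the mean of all its probe sets. The third Tardbp probe set passed with only the 9 bigenic arrays (-0.64, adjusted p = 0.0121), and the fourth without the 2 arrays of largest 3' bias (0.67, adjusted p = 0.0294) and with the beta-actin covariate (0.67, adjusted p = 0.0132). The second passed in every setting run. Signal near 2.04 limits dim genes. No paired analysis was possible because the labels give no shared replicate numbers.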
